A study of Homo sapiens with 4 samples.

Results

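Genes that build the DNA replication origin, the centromere and the kinesin motors, together with the A, B, D and E cyclins that time the cell cycle, were followed in naive and arsenic trioxide (ATO) resistant NB4 cells. Members were taken by name from the array: minichromosome maintenance proteins (MCM, 9 genes), origin recognition complex subunits (ORC, 6 genes), GINS subunits (4 genes), centromere proteins (CENP with 1 letter, 16 genes), kinesins (KIF, 38 genes) and cyclins A, B, D and E (10 genes). They came to 83 genes on 129 probes, of 30811 gene names on 41000 probes of the array. NB4 is an established acute promyelocytic leukemia cell line, and the study compared it with a clone derived from it that resists ATO, a drug used against this leukemia. The resistant line, labelled NB4-VM-AsR1 and written NB4-EV-AsR1 in the methods, was taken here to be 1 clone under both spellings, and it had been kept free of ATO for 1 week. Both lines grew in RPMI medium with fetal bovine serum, and each line gave 2 independently kept flasks, each measured on 1 one-colour array. Since the resistant line is 1 clone and all 4 arrays lay on 1 slide with the naive flasks in the first positions and the resistant flasks in the last, clone, slide position and resistance cannot be told apart.

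In a dividing cell, ORC marks the origins and the MCM2 to MCM7 ring is loaded there as the replicative helicase, which GINS then helps to activate. Centromere proteins form the platform for the kinetochore, and mitotic kinesins move and trim the microtubules of the spindle. Many further kinesins carry cargo along microtubules in cells that need not divide. The mitotic set here was a chosen list: KIF2C, KIF4A, KIF11, KIF14, KIF15, KIF18A, KIF18B, KIF20A, KIF20B, KIF22 and KIF23. All remaining KIF genes form the other kinesins, whatever their role, with KIF2A, KIF2B and KIF24 among them. D and E cyclins act up to the start of DNA synthesis, A and B cyclins during DNA synthesis and mitosis, and many genes of these groups are transcribed in waves through E2F sites or through the cell cycle homology region (CHR) and CCAAT boxes.

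The promoters of the groups differed in the motifs they held. RefSeq promoter windows of GRCh38.p14, running from 250 bases before to 50 bases after the start of the gene, were found for 68 of the 83 members. On both strands they were searched for an E2F-like site (TTTCGCGC, TTTGGCGC, TTTCCCGC or TTTGGCGG), for the CHR (TTTGAA or TTCGAA) and for the CCAAT box (CCAAT). The E2F words TTTGGCGC and TTTGGCGG share all letters but the last, and no word of one motif lies within a word of another. An E2F-like site was present in 6 of 7 MCM promoters (85.7%) and in all 3 GINS promoters, against 3.35% of all 35116 promoters in the table. A CHR was present in 9 of 11 promoters of mitotic kinesins (81.8%) and in 4 of 13 CENP promoters (30.8%), against 16.4% of all promoters. A CCAAT box was present in 6 of 7 MCM promoters and in 9 of 11 of mitotic kinesins, against 34.6% of all promoters. Of the 21 promoters of other kinesins, 2 held an E2F-like site, 2 a CHR (9.52%) and 6 a CCAAT box (28.6%). These matches describe letters in a window and were not tested as sites.

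**Figure D1:**
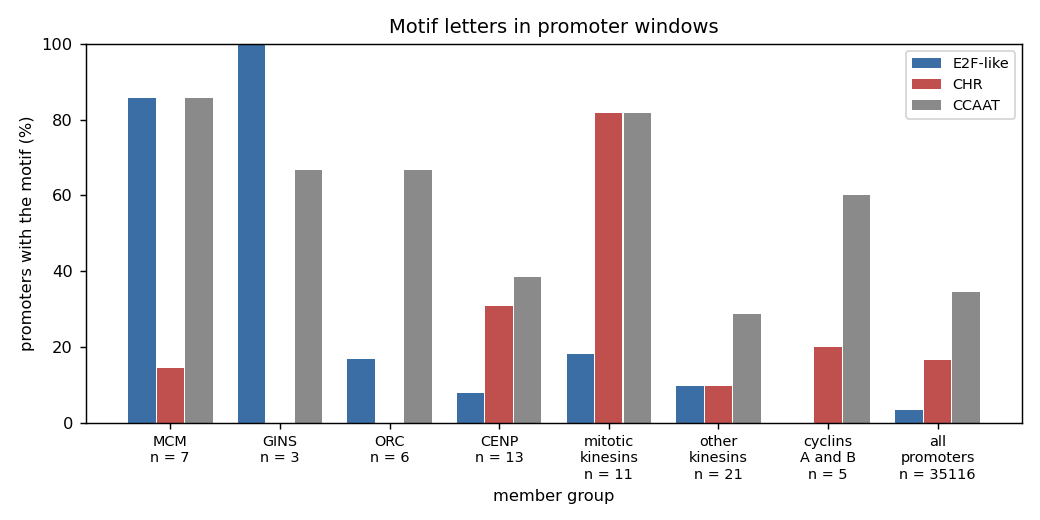
Percent of promoter windows (y axis) that held an E2F-like site, a CHR or a CCAAT box in each group of members and in all 35116 windows of the RefSeq table, with the number of windows under each group. The E2F-like bars stand highest in GINS (3 of 3 windows) and MCM (85.7%), the CHR bar in mitotic kinesins (81.8%), and the 2 windows of D and E cyclins, which held none of the motifs, are left out.

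A few windows are printed as examples of the motifs, chosen because they hold them and not as typical of their groups, while that of KIF17, the called member with the highest log2 difference among those above background in both lines, holds none of them. They are given from 5′ to 3′ on the strand of the gene in GRCh38.p14, with capitals marking the motif letters on either strand, so that CCAAT may read ATTGG and TTTCCCGC may read GCGGGAAA. MCM10 and GINS2 show an E2F-like site beside CCAAT boxes, KIF4A and CCNB2 a CHR beside CCAAT boxes, and CENPA all 3 motifs. CENPA was the only 1 of 13 CENP windows with an E2F-like site, and CCNB2 the only 1 of 5 A and B cyclin windows with a CHR. Of the 6 ORC windows, none of which is printed, 1 held an E2F-like site and 0 a CHR.
MCM10, chr10:13161308-13161607, plus strand: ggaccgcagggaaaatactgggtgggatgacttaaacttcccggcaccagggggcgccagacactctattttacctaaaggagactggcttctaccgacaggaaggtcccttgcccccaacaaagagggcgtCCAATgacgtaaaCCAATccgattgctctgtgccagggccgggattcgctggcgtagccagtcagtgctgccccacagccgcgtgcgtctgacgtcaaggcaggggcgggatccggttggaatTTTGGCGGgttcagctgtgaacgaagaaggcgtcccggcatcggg
GINS2, chr16:85688905-85689204, minus strand: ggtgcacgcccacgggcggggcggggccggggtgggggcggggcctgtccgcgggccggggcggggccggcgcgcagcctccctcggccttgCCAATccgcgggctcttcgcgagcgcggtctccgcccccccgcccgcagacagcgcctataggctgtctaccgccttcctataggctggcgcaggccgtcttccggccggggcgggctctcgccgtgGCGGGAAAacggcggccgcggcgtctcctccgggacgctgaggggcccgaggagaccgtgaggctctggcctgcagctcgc
KIF4A, chrX:70289854-70290153, plus strand: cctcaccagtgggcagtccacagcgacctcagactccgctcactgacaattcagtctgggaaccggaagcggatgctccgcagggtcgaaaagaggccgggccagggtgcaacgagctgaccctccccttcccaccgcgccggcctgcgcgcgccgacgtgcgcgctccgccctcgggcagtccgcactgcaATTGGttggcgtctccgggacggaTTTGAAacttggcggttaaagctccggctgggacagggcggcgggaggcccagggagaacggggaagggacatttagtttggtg
CCNB2, chr15:59104896-59105195, plus strand: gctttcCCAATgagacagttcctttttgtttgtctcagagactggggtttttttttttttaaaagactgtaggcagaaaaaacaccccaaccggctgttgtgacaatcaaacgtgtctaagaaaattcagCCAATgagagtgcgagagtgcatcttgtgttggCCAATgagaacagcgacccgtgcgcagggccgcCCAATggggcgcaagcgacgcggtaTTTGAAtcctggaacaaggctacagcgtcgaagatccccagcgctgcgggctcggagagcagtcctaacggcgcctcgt
CENPA, chr2:26785806-26786105, plus strand: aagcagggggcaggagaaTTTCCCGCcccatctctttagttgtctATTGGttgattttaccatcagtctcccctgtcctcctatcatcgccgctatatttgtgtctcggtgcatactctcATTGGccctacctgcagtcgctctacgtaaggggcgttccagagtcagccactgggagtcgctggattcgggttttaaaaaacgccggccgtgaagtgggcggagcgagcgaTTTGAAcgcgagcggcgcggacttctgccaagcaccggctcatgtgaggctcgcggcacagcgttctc
KIF17, chr1:20717958-20718257, minus strand: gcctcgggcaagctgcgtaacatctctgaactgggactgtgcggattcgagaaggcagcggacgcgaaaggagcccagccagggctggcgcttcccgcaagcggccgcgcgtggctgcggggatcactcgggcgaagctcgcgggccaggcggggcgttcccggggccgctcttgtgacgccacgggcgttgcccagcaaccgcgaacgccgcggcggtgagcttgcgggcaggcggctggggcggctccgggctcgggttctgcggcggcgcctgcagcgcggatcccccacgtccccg

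Levels are given as the log2 processed signal of a probe minus the 75th percentile of its array, so that 0 is the brightness of that percentile, and a gene is given by its tested probe with the highest mean over the 4 arrays. Probes entered the test if both flasks of 1 line or the other gave a signal well above background, and a probe was called when limma gave an adjusted p below 0.05 (Benjamini-Hochberg over all probes tested) with a change of at least 2-fold. By this filter 74 member genes on 111 probes were tested, of 20964 genes and 28221 probes on the array. The 9 genes not tested were all kinesins outside the mitotic set. KIF12, KIF25, KIF26A, KIF2B, KIF6 and KIF7 were well above background on no array, KIF21A and KIF5C on 1 naive array each, and KIF5A on 1 resistant array. MCM3 and MCM7 were saturated on all 4 arrays, so no fold is given for them.

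Between 27922 and 28244 probes were well above background on each array, and between 457 and 565 were saturated. Over probes, the log2 difference of the naive pair had an SD of 0.71, that of the resistant pair 0.37 and those of pairs across the lines 1.01 to 1.07. Of 8 promyelocyte markers on the array, 7 or 8 were well above background in each flask, with a summed signal of 136 to 192 times the 75th percentile. The sum hides single genes: 2 of the 8 were called higher and 1 lower in the resistant line. Log2 differences of the 7 with a fold ran from -1.83 to 2.49, and 1 gene was 2.35 higher in naive flask 1 than in naive flask 2. The summed signal of 4 T cell markers was 1.73 and 2.36 in the naive flasks against 0.11 and 0.15 in the resistant flasks, where 2 of the 4 were above background. CD3D and CD3G were lower there (log2 differences -8.29 and -2.65, both called), while CD3E differed by -0.01 and CD2 by 1.02, neither called. That of 4 epithelial markers, all above background in every flask, was 7.57 and 10.4 against 3.96 and 4.40, and that of 4 monocyte markers, 3 of them above background, was 2.93 and 3.37 against 6.64 and 7.60. Of the epithelial markers KRT18 alone was called (-4.16), and of the monocyte markers CSF1R differed by 1.23 (adjusted p = 0.052), CD14 by -0.50 and VCAN by -0.18. Summed B cell, erythroid and fibroblast markers reached at most 1.76, 0.092 and 0.037. Of the 3 B cell markers tested, 1 was called lower (-1.20, adjusted p = 0.047) and 2 were higher without a call. The part of these marker differences in the results below was not tested, and in bulk RNA fewer cells of a type and less RNA per cell cannot be told apart.

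The members called between the lines were kinesins and cyclins, at a share close to that of all genes. With 2 flasks a line a missing call does not show that a gene kept its level, and in simulated data with 2 arrays a line most changed probes were not called. Of the 111 member probes tested 8 were called (7.21%), against 5.27% of all probes tested. By gene, 5 of 74 members were called (6.76%), against 5.47% of all genes. Of these, 3 were higher in the resistant line (4.05% of members, against 2.49% of all genes) and 2 were lower (2.70%, against 2.98%). CCNB3 and KIF26B, 2 of the 3 higher genes, entered the test through their resistant arrays, where they are high, and among probes above background on all arrays KIF17 alone was called higher. Both resistant flasks lay above or below both naive flasks in 32 of 74 members (43.2%), against 53.8% of all genes tested. The median log2 difference, resistant minus naive, was -0.05 over the 72 members with a fold and -0.02 over all genes.

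**Figure D2:**
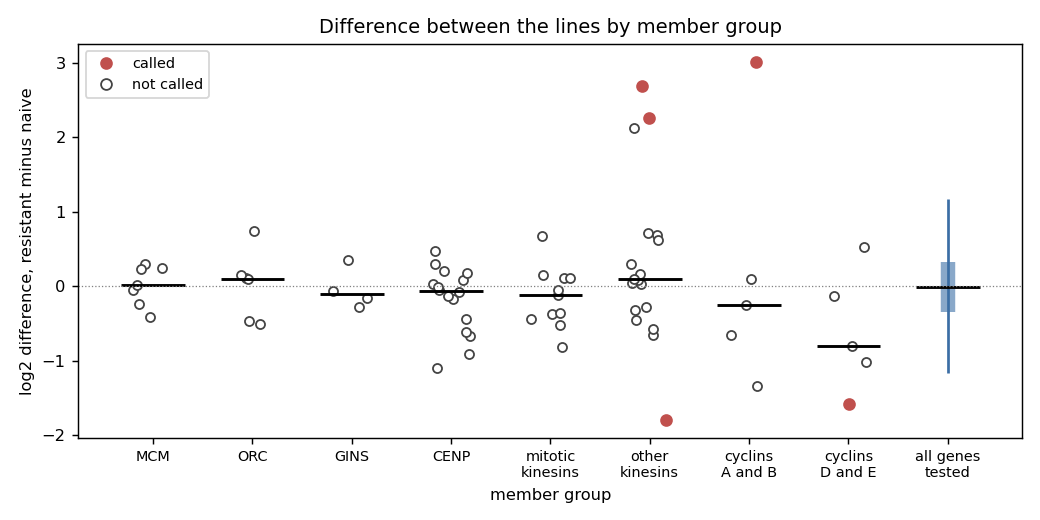
Log2 difference between the lines (y axis, mean of the resistant flasks minus mean of the naive flasks) for each tested member by group, with filled points for called genes, black bars for group medians and, at the right, the 5th to 95th percentile (line), quartiles (box) and median of all genes tested. The groups of origin, centromere and mitotic kinesin genes held no called gene, and the called points were 3 other kinesins, CCNB3 and CCND1.

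None of the 9 MCM genes was called. MCM2 measured 4.57 and 4.04 in the naive flasks and 4.57 and 4.53 in the resistant flasks. MCM4 measured 2.59 and 1.73 in the naive flasks and 2.12 and 2.09 in the resistant flasks. MCM5 measured 4.16 and 3.62 in the naive flasks and 4.20 and 4.17 in the resistant flasks. In MCM2 and MCM4 the lines overlapped, while in MCM5 both resistant flasks lay just above both naive flasks. MCM6, saturated on 1 array, measured 5.87 and 5.78 against 5.57 and 5.61. MCM3 read 5.91 and 6.17 against 5.93 and 6.30, and MCM7 read 6.05 and 6.32 against 6.13 and 6.49, all at saturation. The log2 differences of MCM2, MCM4 and MCM5, which were saturated on no array, lay between -0.05 and 0.30 with adjusted p-values of at least 0.61, and that of MCM6 was -0.24. Of the relatives outside the ring, MCM8 and MCM9, which act in DNA repair, differed by 0.02 and 0.23, and MCM10, which helps to fire the origin, by -0.42 with an adjusted p of 0.65. The median over the 7 MCM genes with a fold was 0.02.

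Among the origin subunits, no ORC or GINS gene was called. ORC1L, the subunit whose level follows the cell cycle, measured 0.50 and -0.10 in the naive flasks and 0.34 and 0.28 in the resistant flasks, inside the naive range. ORC2L measured 0.63 and 0.36 against 0.62 and 0.56, again inside it. ORC3L measured 1.35 and 1.92 in the naive flasks and 2.25 and 2.50 in the resistant flasks. Both resistant flasks were above both naive flasks for ORC3L, with a log2 difference of 0.74 ± 0.29 (SE) and an adjusted p of 0.25. ORC4L measured 1.64 and 0.86 against 0.87 and 0.70, and ORC5L 1.40 and 1.62 against 1.03 and 0.98. On these probes only ORC5L separated the lines (-0.51 ± 0.23, adjusted p = 0.31). Dimmer probes of both genes lay lower in both resistant flasks, uncalled, for ORC4L by -0.28 (adjusted p = 0.54) and for ORC5L by -0.80 (adjusted p = 0.20). ORC6L measured 4.01 and 3.92 against 3.98 and 4.25, and its lines overlapped.

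GINS1 measured -2.35 and -2.91 in the naive flasks and -2.93 and -2.64 in the resistant flasks, and GINS2 measured 4.23 and 3.33 against 3.61 and 3.82. GINS3 had 1 usable naive value, 2.91, because its spot in naive flask 2 was marked as an outlier and dropped, and it measured 2.60 and 2.65 in the resistant flasks. GINS4 measured -1.97 and -2.38 against -1.86 and -1.77. GINS1 and GINS2 overlapped between the lines, and the 4 adjusted p-values were at least 0.50.

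The 16 CENP genes were taken by name, and CENPJ among them now has the symbol CPAP, so not all need be centromere proteins. Of the 16, 6 were higher and 10 lower in the mean of the resistant flasks, with a median log2 difference of -0.06 and no call. CENPB, which binds a short box in the satellite repeats of the centromere, came nearest. It measured 0.09 and 0.07 in the naive flasks and -0.94 and -1.08 in the resistant flasks. The naive flasks lay together above the resistant flasks (log2 difference -1.09 ± 0.22, adjusted p = 0.061). A dimmer CENPB probe differed by -0.31 with an adjusted p of 0.76. With either naive flask left out the main probe passed, and with either resistant flask left out it did not. Such fits rest on a lone flask of 1 line, so no weight is put on them. CENPA, the histone that marks the centromere, differed by -0.17, CENPE, the kinesin of the outer kinetochore, by -0.05, and CENPF, another outer kinetochore protein, by 0.08. CENPL was measured by 2 probes that disagreed, at 0.18 and -1.61, neither of them called (adjusted p = 0.73 and 0.11), and CENPP by probes at -0.61 and 0.26.

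Mitotic kinesins spanned -0.82 to 0.68 with a median of -0.12 and no call. KIF2C, which takes tubulin off microtubule ends at the kinetochore, measured 3.92 and 3.94 in the naive flasks and 4.59 and 4.62 in the resistant flasks. Its flasks agreed closely within each line, and the log2 difference of 0.68 ± 0.22 had an adjusted p of 0.18. KIF4A, a chromosome-bound kinesin of the central spindle, measured 1.96 and 1.23 against 0.80 and 0.75 (-0.82 ± 0.31, adjusted p = 0.25). KIF11, which pushes the spindle poles apart, differed by -0.37 on its brighter probe and by 0.05 on its other probe. Taken as 1 set of 46 genes, MCM, ORC, GINS, CENP and mitotic kinesins gave 0 calls with limma, against 5.47% of all genes tested. In this set 7 genes had an unadjusted p below 0.05 with limma, a threshold that 19.5% of all genes tested passed. The methods' t-test gave 5 of 45 at an unadjusted p below 0.05, against 15.4% of all genes, and 0 after adjustment.

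Calls among the kinesins fell on genes outside the mitotic set, 3 of the 18 tested, against 0 of 11 in that set and 5.47% of all genes. KIF17, a motor best known for transport in dendrites and cilia, measured -3.35 and -3.15 in the naive flasks and -0.69 and -0.44 in the resistant flasks (probe at hg19 chr1:20990641-20990700). Every resistant flask was above every naive flask, by a log2 difference of 2.69 ± 0.24 (6.45-fold, adjusted p = 0.0044). KIF26B, a kinesin-like protein without motor activity, measured -6.58 and -5.72 in the naive flasks, above background on 1 of these arrays, and -3.79 and -3.99 in the resistant flasks (probe at chr1:245866263-245866321). Its log2 difference was 2.26 ± 0.34 (4.79-fold, adjusted p = 0.026), without overlap, in which 1 naive value was not well above background. A second KIF26B probe was not well above background on any array and was not tested.

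KIF16B, which carries early endosomes, was lower in the resistant line. Its brighter probe (chr20:16252955-16253014) measured -3.31 and -3.57 in the naive flasks and -5.25 and -5.22 in the resistant flasks. The log2 difference was -1.79 ± 0.23, 3.47-fold lower, with an adjusted p of 0.015. The second KIF16B probe (chr20:16359993-16360052) measured -5.25 and -4.77 against -6.62 and -6.40 and was, in the resistant flasks, not well above background. It was called too (adjusted p = 0.044), and against the lowest signals that were above background the naive flasks were at least 2.55-fold higher. Both probes of KIF16B pointed the same way. The second entered the test through its naive arrays alone, so that some of its difference followed from the filter.

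The 2 probes of KIF27 did not. The brighter probe (chr9:86503441-86503500) measured -2.47 and -1.88 in the naive flasks and -2.13 and -2.12 in the resistant flasks, which lay inside the naive range. The other probe (chr9:86451761-86451820) measured -5.64 and -5.77 against -7.09 and -6.89, was not well above background on the resistant arrays, and was called (-1.28 ± 0.23, adjusted p = 0.042). As a bound, the naive flasks were at least 1.71-fold higher on it, and KIF27 is not counted among the called genes. This probe too entered the test through its naive arrays alone.

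Among the kinesins well above background on all arrays, KIF13B and KIF1C, both cargo motors, had the highest values after KIF17. KIF13B measured -0.22 and -0.27 in the naive flasks and 0.40 and 0.53 in the resistant flasks (0.71 ± 0.22, adjusted p = 0.17), and its other probes differed by 0.01 and 0.60. KIF1C measured -1.34 and -0.97 against -0.58 and -0.35 (0.69 ± 0.25, adjusted p = 0.23). In both genes the lines did not overlap and the adjusted p missed the threshold. The median over the 18 other kinesins tested was 0.09, with 12 above 0 and 6 below.

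**Figure D3:**
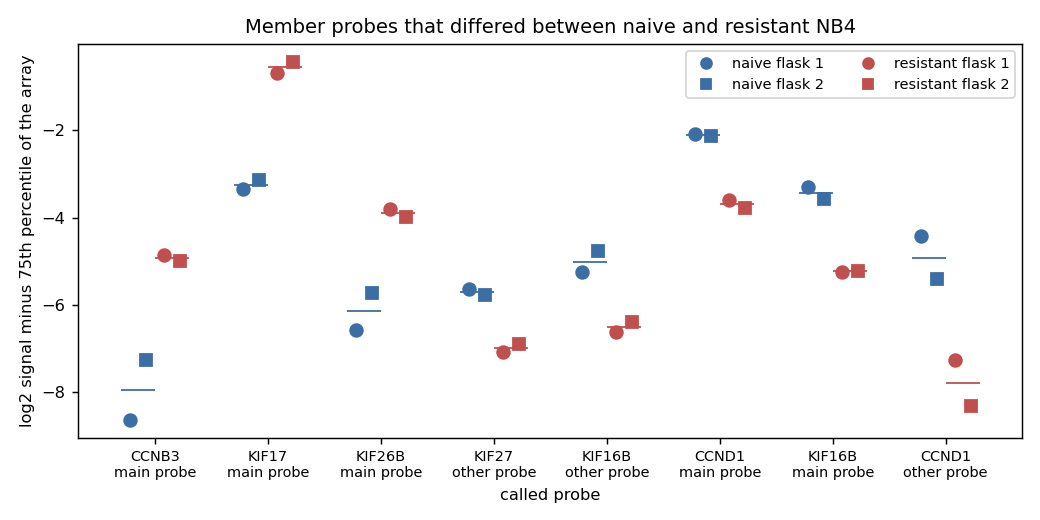
The 8 called probes of members, with the log2 signal minus the 75th percentile of the array on the y axis, 1 point per flask and a bar at the mean of each line. The lines do not overlap for any of the 8 probes. The naive arrays were not well above background for CCNB3, nor the resistant arrays for the other probes of KIF16B, KIF27 and CCND1.

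The cyclins held the remaining 2 calls, in opposite directions. CCND1, the cyclin D1 that activates CDK4 and CDK6, measured -2.08 and -2.14 in the naive flasks and -3.59 and -3.78 in the resistant flasks (probe at chr11:69468233-69468292). Both resistant flasks were lower, with a log2 difference of -1.58 ± 0.22 (2.98-fold, adjusted p = 0.021). A second CCND1 probe (chr11:69467270-69467329) fell from -4.42 and -5.42 to -7.26 and -8.32, not well above background in the resistant line, and was called (adjusted p = 0.039, at least 2.93-fold). It entered the test through its naive arrays alone, so that some of its difference followed from the filter. The third CCND1 probe measured -2.66 and -3.28 against -4.01 and -4.13 and was not called (-1.10, adjusted p = 0.12). The brightest probes of the other D cyclins lay lower in both resistant flasks without passing the test. CCND2 measured 4.24 and 3.90 in the naive flasks and 3.19 and 2.93 in the resistant flasks (-1.01 ± 0.25, adjusted p = 0.11). Its other probes differed by -0.47, with overlap between the lines, and by -0.85. CCND3 measured 3.40 and 3.14 against 2.46 and 2.46 (-0.81 ± 0.23, adjusted p = 0.14).

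CCNB3, a cyclin known mainly from meiosis, measured -8.63 and -7.26 in the naive flasks, above background on neither array, and -4.86 and -5.00 in the resistant flasks (probe at chrX:50094691-50094750). The fit gave a log2 difference of 3.02 ± 0.48 (adjusted p = 0.030), and as a bound the resistant flasks were at least 2.52-fold higher. CCNB3, like KIF26B and KIF13A, entered the test through its resistant arrays alone, so that some difference followed from the filter.

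The remaining A, B and E cyclins gave no call. CCNA2, the cyclin of DNA synthesis, measured 1.96 and 0.49 in the naive flasks and 1.11 and 0.83 in the resistant flasks. CCNB1, the main mitotic cyclin, measured 4.08 and 3.03 against 2.84 and 2.96, and CCNB2, its close relative, 5.03 and 4.27 against 4.68 and 4.82. CCNA2 and CCNB2 in the resistant line lay inside the naive range. In CCNB1 both resistant flasks lay below both naive flasks, with a log2 difference of -0.66 and an adjusted p of 0.43. CCNE1 measured 2.36 and 1.66 against 2.48 and 2.59, both resistant flasks above both naive flasks (0.53, adjusted p = 0.42). CCNE2 measured -3.31 and -4.83 against -4.07 and -4.34. CCNA1, the A cyclin of germ cells and myeloid leukemia, measured 0.36 and -2.47 in the naive flasks and -1.70 and -3.09 in the resistant flasks. Its flasks spread widely in both lines, and it was the single member whose resistant flasks were at least 2-fold apart (1.35% of 74 members, against 2.06% of all genes).

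Of the calls, KIF17 alone remained when either resistant flask was left out (adjusted p = 0.028 without flask 1 and 0.039 without flask 2), while CCNB3, KIF26B, KIF16B and CCND1 had adjusted p-values of 0.073 to 0.26 there. With normexp background correction no probe on the array was called, and an exact permutation test of 2 flasks against 2 cannot give a p under 0.333.

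**Figure D4:**
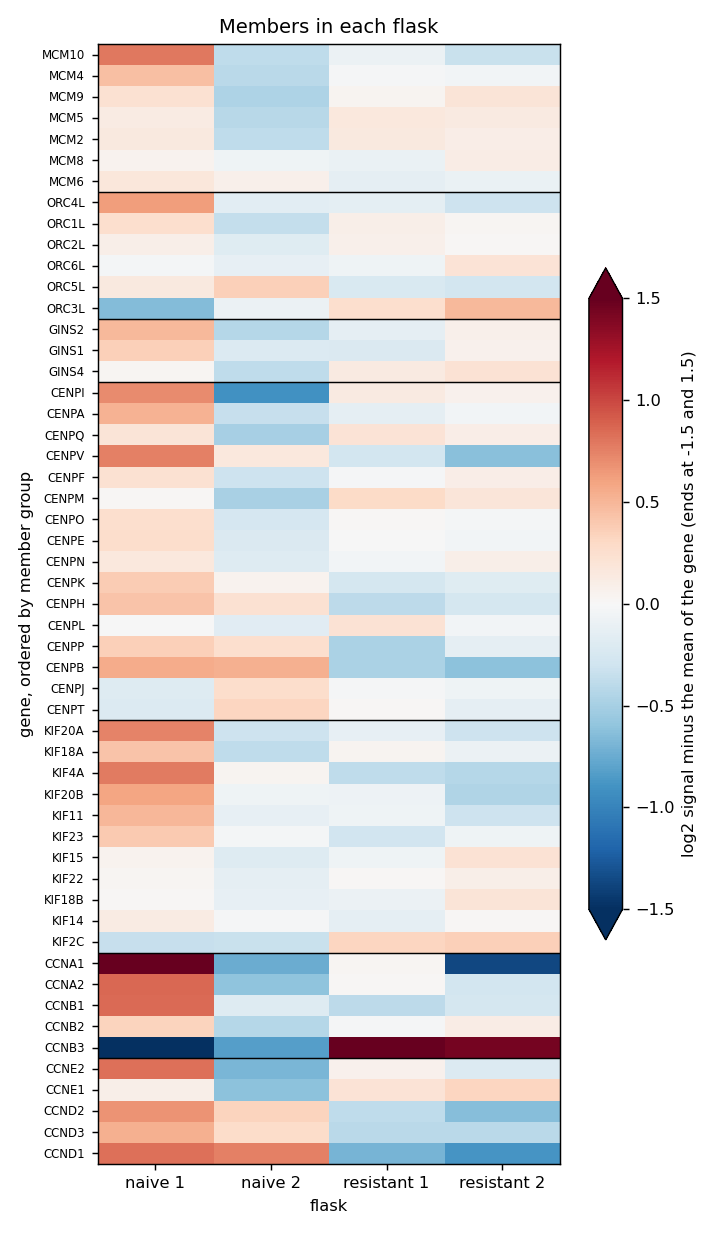
Colour gives the log2 signal of each gene in each flask minus its mean over the 4 flasks (scale from -1.5 to 1.5) for tested members outside the other kinesins, ordered by group. Most genes are red in naive flask 1 and blue in naive flask 2, with the resistant flasks between or near them. MCM3, MCM7 (saturated) and GINS3 (1 missing flask) are left out.

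A further difference among the members lay within the naive line. Of the 53 members outside the other kinesins with both naive values, 47 were higher in naive flask 1 than in naive flask 2 (88.7%), with a median log2 difference of 0.50. Over all genes tested 44.2% were higher in flask 1, with a median of -0.08. By group this held for 7 of 7 MCM, 3 of 3 GINS, 4 of 6 ORC, 14 of 16 CENP, 10 of 11 mitotic kinesin, 4 of 5 A and B cyclin and 5 of 5 D and E cyclin genes. The other kinesins went both ways, with 10 of 18 higher in flask 1 and a median of 0.03. With 1 array per flask this difference has no replicate check and no test.

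The sizes can be read from the values already given. In naive flask 1 MCM10 measured 1.32 and in naive flask 2 it measured 0.15, and KIF20A, a kinesin of cell division, measured 1.23 and 0.18. CENPI, a centromere protein, measured -2.79 and -4.42, with the resistant flasks between them at -3.37 and -3.44. The largest gap was that of CCNA1 (2.83), followed by KIF13A (2.06), a vesicle motor at -5.86 and -7.91 that was above background on 1 naive array, and CENPI (1.62). KIF13A measured -5.02 and -4.48 in the resistant flasks, a log2 difference of 2.13 ± 0.69 with an adjusted p of 0.19. In the other direction stood KIF21B, a motor of neurons and immune cells, at 0.57 in flask 1 and 2.14 in flask 2, CCNB3 (-1.37, well above background in neither) and KIF24, a kinesin of the centriole, at -3.12 and -1.79. KIF21B and KIF24 in the resistant line lay between the naive flasks, at 1.47 and 1.41 and at -2.32 and -2.26. Naive flask 1 was at least 2-fold above flask 2 in 8 of 73 members (11%, against 4.03% of all genes) and at least 2-fold below it in 3 (4.11%, against 9.38%).

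**Figure D5:**
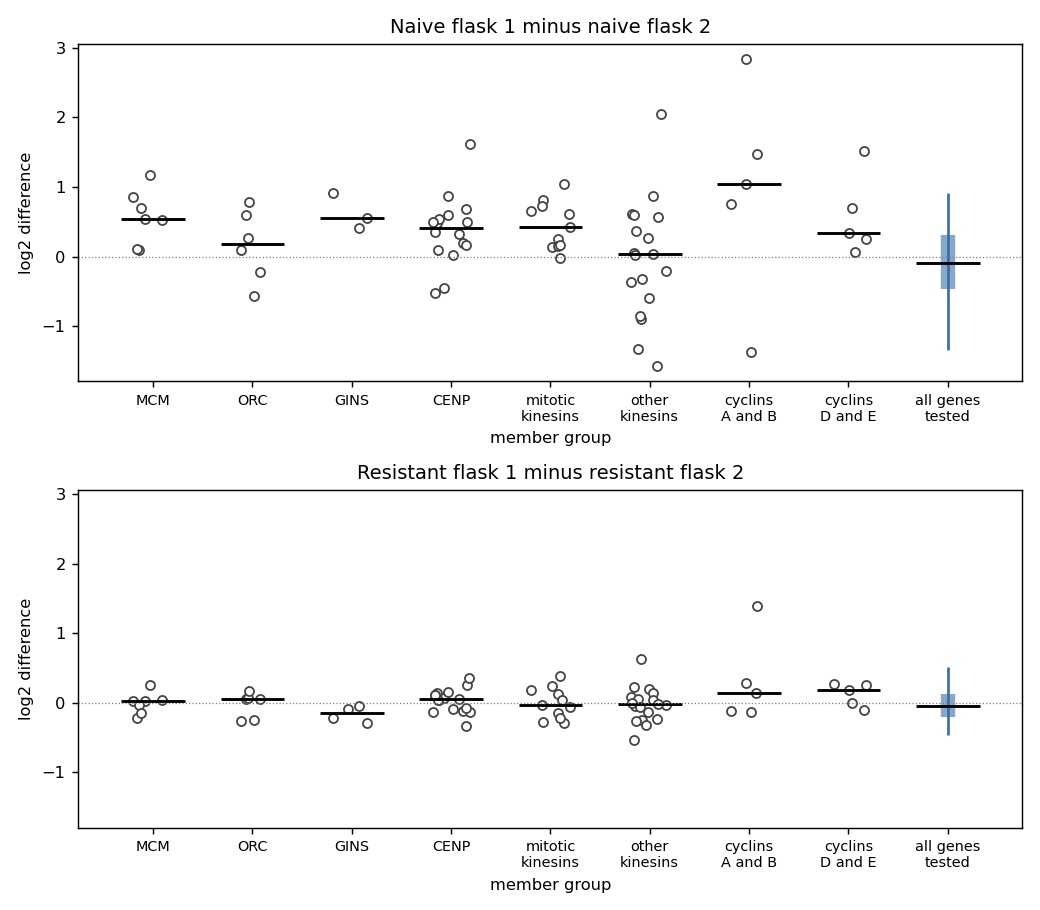
Log2 difference between the flasks of 1 line (y axis) for each tested member by group, naive flasks above and resistant flasks below, with black bars at group medians and the 5th to 95th percentile (line), quartiles (box) and median of all genes tested at the right. Most points outside the other kinesins lie above 0 in the naive panel (47 of 53), and all but CCNA1 lie within 1 of 0 in the resistant panel.

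The members showed no such difference between the resistant flasks. Outside the other kinesins 30 of 54 were higher in resistant flask 1, with a median of 0.04 and a range from -0.33 to 1.39. Over all genes tested 8857 of 20588 were, with a median of -0.04. By group the counts ran from 0 of 4 GINS to 4 of 5 D and E cyclin genes. In 18 of the 53 members outside the other kinesins with 4 values (34%) both resistant values lay between the naive values, against 22% of all genes. The difference between the naive flasks was also seen on other probes of these genes, with 18 of 23 further probes of 19 genes higher in flask 1 and a median of 0.46. Within 6 ranges of mean signal the median of all genes lay between -0.24 and 0.07 and that of these members between 0.07 and 0.60. Under the scalings, background corrections and filters tried, 44 to 48 of them were higher in flask 1, with medians of 0.42 to 0.66, while 38.1% to 69.8% of all probes were. The gap to all probes shrank most under normexp, where all probes had a median of 0.34 and these members one of 0.46, against -0.05 and 0.50 without it. The 6 usable spike-in controls stood 1.31 lower on the array of naive flask 1 than on that of naive flask 2 after scaling, and -0.24 and -0.27 on the resistant arrays, and their part in the difference was not tested.

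The other genes of the pathway, listed by role but with earlier results of these data known, gave no call. The 4 lists held 96 names, of which 93 were on the array and all were tested. Limma called 0 of the 93, against 5.47% of all genes tested. Unadjusted p-values below 0.05 were found for 6 of them with limma and 3 of 92 with the methods' t-test (19.5% and 15.4% of all genes), none after adjustment. The median differences between the lines were 0.01 for origin licensing and firing (29 genes), 0.10 for kinetochore and spindle checkpoint (25 genes), 0.02 for mitotic kinases and spindle (17 genes) and -0.19 for cyclin partners and E2F (22 genes). CDK6, the kinase partner of the D cyclins, was chosen after its values were seen and went against most of its list. Of those 22 genes 17 were lower in the resistant line, down to -1.38, and 5 were higher. CDK6 measured 2.19 and 1.69 in the naive flasks and 3.08 and 3.37 in the resistant flasks, all resistant values above the naive ones (1.29 ± 0.28, adjusted p = 0.074). In naive flask 1 the genes of the 4 lists were again the higher ones, in 26 of 29, 23 of 25, 17 of 17 and 17 of 22. Their medians were 0.47, 0.47, 0.38 and 0.40. Between the resistant flasks 30 of the 92 with both values were higher in flask 1 (median -0.08), among them 6 of 28 for origin licensing and firing.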

How the data were processed

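RNA of 2 flasks of naive NB4 and 2 flasks of the resistant line was measured on 4 one-colour Agilent arrays. Per the file headers the scans were read with Feature Extraction 10.5.1.1. In its output, which the authors deposited, the processed signal is a linear intensity after background subtraction, and low spots carry a surrogate value. A second deposited table holds log2 values that the authors made in GeneSpring GX, and it served as an alternative. Its column medians were -3.64, -3.49, -3.59 and -3.63, and it correlated with the values computed here (Pearson's r 0.9998 or more across probes on each array). Such a correlation does not depend on how a column was centred or scaled.

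Processed signals were put on the log2 scale in R 4.3.3 without control spots and without spots that carry an outlier mark (non-uniform or population). Repeated spots of 1 probe were averaged, and each array was shifted by its 75th percentile. The fits used limma 3.58.1 (lmFit, eBayes) over the 28221 probes tested, and standard errors are those of the fit. The fit was tested on simulated data, where it missed most of the changed probes. Arrays have no read depth, and their number limits the precision. P-values set the difference between the lines against the spread between flasks, which limma moderates over all probes tested. They do not cover a spread between clones. Lower bounds set the bright line against the lowest signal among probes well above background on each array, or against the dim probe itself where higher. The normexp offset was 50.

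The members, gene lists and tests were chosen with earlier results of these data known. Values in every flask are given for called members, for the 5 highest and 5 lowest differences among members above background on all arrays, for MCM2 to MCM7, ORC, GINS and the cyclins, for the 3 largest differences between the naive flasks in each direction, and for members called on another probe. MCM10, KIF20A, KIF4A, CENPL and a few further members are given as examples chosen after their values were seen. Alternatives were 2 normexp corrections, quantile, scale and median scaling, 3 filters, an intensity trend, the methods' t-test, the deposited table, a replicate block, all probes of a gene and each flask left out. Current symbols came from RefSeq accessions for 26222 of 41000 probes. Probe positions are those of the file headers (hg19), promoter windows those of RefSeq (GRCh38.p14), and motif matches and figures were made with Python 3.11.15 and matplotlib 3.10.9.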

Additional observations from a re-analysis of the deposited data

Results flagged for a closer look

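KIF19 and KIF5A each had a probe that stayed outside the comparison of the lines but was well above background on the array of resistant flask 2 and on no naive array. The KIF19 probe measured -6.11 there on the log2 scale, and -8.57, -8.32 and -8.45 in the naive flasks and resistant flask 1. The KIF5A probe measured -6.31 there, and -6.47, -8.41 and -7.19 in the naive flasks and resistant flask 1, so that naive flask 1 came close to it. Each rests on 1 array.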

How the results depend on the processing

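Leaving out 1 flask assumes that the lone flask of its line varies like the others. The count of called probes, 1487 with limma, then ranged from 728 to 4538, and that of called members from 1 to 14. Normexp called 0 probes (929 at an unadjusted p below 0.05) and 0 members, normexp with bright local backgrounds reset 3 members (CCND1, CENPB and KIF17), and testing only probes above background on all arrays, which drops 2 called members, 760 probes and 3 members. The methods' t-test called 0 probes and 0 members after adjustment, with 4138 probes at an unadjusted p below 0.05. Other genes of the pathway, at 0, became 1 with normexp reset, with an intensity trend and with the unadjusted t-test, 2 with scale normalization and 0 to 5 with a flask left out. With the replicate number as a replicate block 1374 probes and the same 5 members were called. Flasks of the same number correlated at 0.12 in their deviations from the line mean. With 2 flasks a line this is a single value, which cannot show whether such flasks share more than a number. The fit without the block is given.
Medians of other kinesins were 0.18 with normexp and 0.20 with scale normalization, and that of D and E cyclins -0.60 with normexp. With 1 flask left out medians ranged from -0.12 to 0.38 for MCM, -0.12 to 0.21 for ORC, -0.36 to 0.39 for GINS, -0.27 to 0.20 for CENP, -0.46 to 0.089 for mitotic kinesins and 0.0019 to 0.32 for other kinesins. The following differences of single genes, none of them called, changed sign: with normexp ORC6L -0.039, GINS1 0.17, CCNB2 -0.013 and CCNE2 0.27; with scale normalization MCM4 0.11 and GINS2 0.13; in the deposited table, which keeps the dropped outlier spot, GINS3 0.23; and over all probes KIF27 -0.62. Leaving out 1 flask gave ranges across 0 for CCNA1 (-2.76 to 0.077), CCNA2 (-0.99 to 0.48), CCNB2 (-0.28 to 0.47), CCNE2 (-0.90 to 0.62), CENPI (-0.61 to 1.01), GINS1 (-0.43 to 0.13), GINS2 (-0.52 to 0.39), KIF21B (-0.70 to 0.87), KIF24 (-0.50 to 0.82), KIF27 (-0.25 to 0.34), MCM2 (-0.019 to 0.51), MCM4 (-0.48 to 0.38), ORC1L (-0.19 to 0.41) and ORC2L (-0.039 to 0.22). The causes were not tested. Of 638 alternative values of single genes, 578 kept their direction and their side of the threshold.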
